A study of Mus musculus with 9 samples.

Results

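The genes followed in every library of the series store, import, export or release iron, or break down heme: the ferritin subunits Fth1 and Ftl1, the uptake genes Tfrc, Trf, Steap3 and Slc11a2, the exporter Slc40a1, the ferritin turnover receptor Ncoa4, the iron sensor Ireb2 and the heme oxygenase Hmox1. They were chosen by symbol for their roles in the pathway, with earlier results of these data known, and they are 10 of the 24493 rows of the gene table. RNA had been sequenced from 6620c1, an established cell line from a mouse pancreatic tumor, in 3 libraries each from day 0, day 2 and day 14 of a culture meant to keep nutrients and oxygen short. DMEM was the base of the medium, with fetal calf serum at 0.5%, glucose at 2.5 mM and amino acids reduced to 20% of the usual concentration. The labels give it for all 9 libraries, those of day 0 included, name no further treatment and give no oxygen level. Cells held in full medium for the same 2 or 14 days are not among the libraries, so the effect of deprivation and that of time in culture cannot be told apart. The line is the only one in the series. Whether the 3 libraries of a day came from separate cultures is not stated, so every p-value measures the spread between these libraries, which may be technical.

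Cells take up iron bound to transferrin through the transferrin receptor, reduce it in the endosome and move it into the cytosol. Iron that is not used is stored inside shells built of ferritin heavy and light chains, or leaves the cell through ferroportin. When iron is short, iron regulatory proteins bind stem-loops called iron-responsive elements (IREs) in mRNAs, where they block translation of ferritin and protect the transferrin receptor mRNA from decay. Ferritin iron is released when a cargo receptor carries ferritin to the lysosome, and heme oxygenase frees the iron held in heme. Pancreatic tumor cells are known for high autophagy and for ferritin breakdown through this route.

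Levels are in TPM, the share of all transcripts that a gene takes once length is corrected for, and can be set side by side between genes. The read depth is unknown. All 10 genes reached 1 TPM in 9 of 9 libraries and were among the 12693 genes tested. Fold changes were computed from log2(TPM + 1), where changes of low genes look smaller than they are, and adjusted p-values come from limma with Benjamini-Hochberg adjustment over those 12693 genes, with 0.05 as the threshold. RNA of a whole culture was measured, so fewer cells with a transcript and less of it per cell cannot be told apart. The tumor cell label was checked against ductal epithelial markers, of which 6 of 6 averaged at least 1 TPM over the 9 libraries. They summed to 10785 to 11441 TPM at day 0, 5456 to 7572 TPM at day 2 and 6786 to 8543 TPM at day 14, most of it keratins, while Epcam stood at 0.429 to 2.80 TPM at days 0 and 2 and at 10.9 to 19.8 TPM at day 14.

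The IREs of ferritin and of the transferrin receptor are shown before the levels of these transcripts. Any part of the IREs in those levels was not tested. In the mouse GRCm38 annotation (GENCODE vM21, 1 transcript a gene), both UTRs were searched for an IRE stem-loop: a C, then 5 bases, then the loop CAGTGN, then 5 bases that pair with the 5 before the loop. The capitals mark the loop. A single match lay in the 5′ UTR of each ferritin transcript, at chr19:9982731-9982760 on the plus strand for Fth1 and at chr7:45459779-45459808 on the minus strand for Ftl1.

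Fth1 IRE: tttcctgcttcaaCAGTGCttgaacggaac

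Ftl1 IRE: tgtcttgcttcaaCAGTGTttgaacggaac

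The Tfrc transcript held 4 matches in its 3′ UTR on the plus strand of chromosome 16, at chr16:32631218-32631247, chr16:32631597-32631626, chr16:32631662-32631691 and chr16:32631709-32631738, in that order.

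Tfrc IRE 1: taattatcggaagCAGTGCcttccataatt

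Tfrc IRE 2: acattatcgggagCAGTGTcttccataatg

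Tfrc IRE 3: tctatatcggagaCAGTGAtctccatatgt

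Tfrc IRE 4: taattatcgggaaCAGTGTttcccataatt

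Slc40a1 had 1 match in its 5′ UTR, and the other 6 members had none by this rule on the transcript chosen. Other transcripts of these genes, Slc11a2 included, were not searched, while the TPM values are per gene. Genes with a UTR at least as long, the members included, were searched over the same length, from the start of the UTR. Of the 7638 genes with a 5′ UTR at least as long as that of Fth1 (224 bases), 0.0786% held a match in its first 224 bases. Fth1, Ftl1 and Slc40a1 were among these 6 genes. Of the 3387 genes with a 3′ UTR at least as long as that of Tfrc (2461 bases), 1.09% held at least 1 in its first 2461 bases, and Tfrc was the only one with 3 or more in that stretch.

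**Figure D1:**
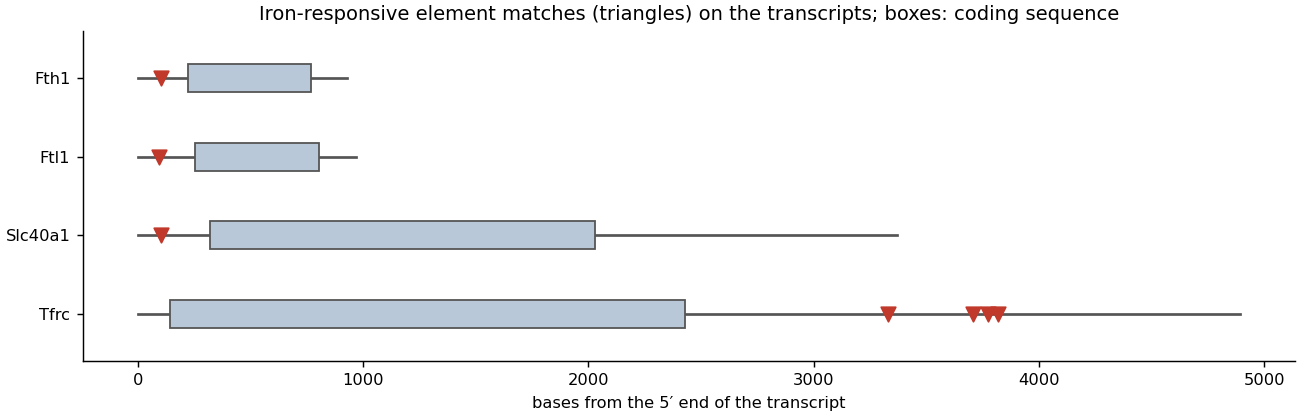
Positions of the stem-loop matches (red triangles) along the 4 member transcripts that hold any, in bases from the 5′ end, with the coding sequence as a box. Fth1, Ftl1 and Slc40a1 hold 1 each before the coding sequence and Tfrc holds 4 after it.

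The ferritin subunits, which form the iron store, were the most abundant transcripts of the 10. Fth1, the heavy chain with ferroxidase activity, stood at 3075, 2895 and 2579 TPM at day 0, at 3548, 3259.7 and 3255 TPM at day 2 and at 3866, 3505 and 3169 TPM at day 14. Ftl1, the light chain that aids mineral formation, stood at 7790 (replicate 1), 6772 and 5645 TPM at day 0, at 5899, 5030.0 and 4559 TPM at day 2 and at 5579.7, 4639 and 4750 TPM at day 14. All day 2 and day 14 libraries were above those of day 0 for Fth1, and for Ftl1 those of day 14 were all below day 0, while 1 day 2 library overlapped the lowest of day 0. By rank among all rows, Ftl1 lay between place 4 and place 20 and Fth1 between place 22 and place 46. Reads of both genes can be shared with processed copies in the genome, so their levels are uncertain to that extent.

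Against day 0, the day 2 change of Fth1 was 0.24 (SE 0.10, limma, adjusted p = 0.0752) and missed the threshold. It passed with the 20 most abundant rows removed (0.40, adjusted p = 0.0123), with Mir6236 and Rn45s removed (0.35, 0.0187) and with the replicate number as a block (0.0304). At day 14 Fth1 rose by 0.30 (95% interval 0.07 to 0.54, adjusted p = 0.0340). The median of all genes tested had itself moved by 0.22 at day 14 against day 0, which leaves 0.08 for Fth1 above it, and under median-of-ratios scaling the Fth1 change was 0.00. The call also ended without replicate 2 or 3 of day 0 (adjusted p of 0.0753 and 0.124) and without replicate 1 or 2 of day 14 (0.108 and 0.0694). Ftl1 fell at both times, by log2 fold changes of -0.38 at day 2 (95% interval -0.70 to -0.05, limma, adjusted p = 0.0461) and -0.43 at day 14 (-0.75 to -0.10, adjusted p = 0.0317). Under median-of-ratios scaling the day 14 value was -0.72. The day 2 call ended without day 0 replicate 1 or 2, day 2 replicate 2 or 3, or day 14 replicate 2 or 3 (adjusted p of 0.0526 to 0.162), and the day 14 call without day 0 replicate 1 or 2 or day 14 replicate 2 or 3 (0.0794 to 0.113).

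The balance of the transcripts of the 2 chains, which does not depend on scaling between libraries, moved toward that of the heavy chain. Fth1 over Ftl1 was 0.395, 0.428 and 0.457 at day 0, 0.601, 0.648 and 0.714 at day 2, and 0.693, 0.756 and 0.667 at day 14. Every library of days 2 and 14 was above every library of day 0, and days 2 and 14 overlapped each other. The log2 ratio differed between days (exact permutation test over 1680 arrangements of the 9 libraries, p = 0.0143, adjusted over 3 ratios 0.0214), by 0.62 at day 2 and 0.73 at day 14 from day 0. Pairs of days cannot pass on their own, since 3 against 3 libraries give no exact permutation p under 0.1. The transcripts of both chains together made up 0.959% ± 0.132 of the TPM of day 0, 0.852% ± 0.0840 of that of day 2 and 0.850% ± 0.0824 of that of day 14 (SD, n = 3). These shares overlapped between all days.

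The message of the transferrin receptor fell. Tfrc, which encodes it, had 179, 228 and 231 TPM in the day 0 libraries, 73.2, 50.4 and 63.0 TPM in those of day 2 and 58.1, 97.6 and 54.2 TPM in those of day 14. All 6 libraries of the later days were below the lowest of day 0, and days 2 and 14 overlapped. The day 2 mean was 62.2 ± 11.4 TPM and the day 0 mean 213 ± 29.5 TPM (SD, n = 3), and the log2 fold change was -1.76 (SE 0.23, 95% interval -2.28 to -1.25, limma, adjusted p = 0.000178). At day 14 the mean was 70.0 ± 24.0 TPM and the log2 fold change against day 0 was -1.63 (SE 0.23, limma, adjusted p = 0.000432). Between days 14 and 2 the difference was 0.13, with an interval of -0.38 to 0.65 (limma, adjusted p = 0.690).

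Set against ferritin in the same library, the receptor message was also lower. Tfrc over the sum of Fth1 and Ftl1 was 0.0164, 0.0236 and 0.0281 at day 0, 0.00775, 0.00608 and 0.00807 at day 2, and 0.00615, 0.0120 and 0.00685 at day 14. Day 0 lay above both later days without overlap. The log2 ratio differed between days (exact permutation test, p = 0.0286, adjusted 0.0286), by -1.61 at day 2 and -1.48 at day 14. Without day 0 replicate 2 or without day 0 replicate 3 that exact permutation p was 0.0643, which misses the threshold.

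Slc11a2, the transporter DMT1 that carries ferrous iron out of the endosome, had 23.9, 25.2 and 25.8 TPM in the day 0 libraries, 8.80, 10.8 and 7.31 TPM in those of day 2 and 9.31, 14.6 and 15.2 TPM in those of day 14. No library of the later days reached the lowest of day 0. It fell by log2 fold changes of -1.40 at day 2 (SE 0.19, limma, adjusted p = 0.000252) and -0.92 at day 14 (SE 0.19, adjusted p = 0.00347). Day 14 was above day 2 by 0.48 (95% interval 0.05 to 0.91, limma, adjusted p = 0.0867), short of the threshold. It passed without day 2 replicate 2 (adjusted p = 0.0478) and without day 14 replicate 1 (0.0143).

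Trf, transferrin itself, is made mainly by liver and carries iron in plasma. Its row had 16.2, 16.2 and 19.9 TPM in the day 0 libraries, 45.9, 16.5 and 40.6 TPM in those of day 2 and 10.5, 6.21 and 4.36 TPM in those of day 14. In day 2 replicate 2 the value lay within the range of day 0, while the other day 2 libraries were above it. All libraries of day 14 were below every other library. The day 2 difference from day 0 was 0.82 (95% interval -0.03 to 1.68, limma, adjusted p = 0.0903), and 1.27 without day 2 replicate 2 (adjusted p = 0.00546), so this single library sets whether it passes. At day 14 Trf fell, with log2 fold changes of -1.27 against day 0 (SE 0.38, limma, adjusted p = 0.0189) and -2.09 against day 2 (SE 0.38, adjusted p = 0.00376). The first of these missed the threshold without day 0 replicate 3, day 14 replicate 2 or day 14 replicate 3, at adjusted p of 0.0590, 0.0512 and 0.0618. Hepatocyte markers (4 listed, 2 averaging at least 1 TPM) summed to 2.16 to 4.28 TPM at day 0, 6.23 to 19.95 TPM at day 2 and 6.34 to 90.4 TPM at day 14. Ttr made up most of it at days 2 and 14, while at day 0 Ttr and Apoa1 averaged 1.39 and 1.44 TPM. Alb was at 0.904 TPM or less in every library. Their part in the Trf values was not tested.

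Steap3, the endosomal reductase that turns ferric into ferrous iron, was the lowest of the 10, at 1.52 to 2.57 TPM at day 0, 1.37 to 2.73 TPM at day 2 and 1.14 to 2.42 TPM at day 14. The days overlapped throughout. Its differences from day 0 were -0.15 at day 2 (95% interval -0.70 to 0.40, limma, adjusted p = 0.625) and -0.23 at day 14 (-0.78 to 0.32, adjusted p = 0.440). These intervals leave room for a change of the size seen in Ftl1. Under quantile normalization the day 14 difference was -0.87 and passed (adjusted p = 0.0186).

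Slc40a1, which encodes ferroportin, the known iron exporter of mammalian cells, fell at day 2 and not detectably at day 14. It had 17.0, 18.9 and 20.1 TPM in the day 0 libraries, 12.9, 11.95 and 14.6 TPM in those of day 2 and 19.1, 18.5 and 16.0 TPM in those of day 14. The day 2 libraries lay below both other days, whose values overlapped. The log2 fold change was -0.48 at day 2 (SE 0.12, limma, adjusted p = 0.00841) and -0.06 at day 14 (95% interval -0.34 to 0.21, adjusted p = 0.683). The day 2 call ended once the 20 most abundant rows were removed and the rest rescaled (-0.32, adjusted p = 0.0644). Between days 14 and 2 Slc40a1 rose by 0.41 (SE 0.12, limma, adjusted p = 0.0316), but the median of all genes rose by 0.25 in that comparison, and under median-of-ratios scaling the difference was 0.15 (adjusted p = 0.467). That call also ended without day 0 replicate 2, day 2 replicate 1 or 2, or day 14 replicate 1 or 2 (adjusted p of 0.0582 to 0.0901).

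The genes for the release of iron from ferritin and from heme rose. Ncoa4, the cargo receptor that hands ferritin to autophagosomes, had 48.9, 51.5 and 44.8 TPM in the day 0 libraries, 201, 187 and 149.8 TPM in those of day 2 and 170.2, 102 and 125 TPM in those of day 14. Every later library was above every library of day 0, and days 2 and 14 overlapped. The day 2 mean was 179 ± 26.6 TPM and the day 0 mean 48.4 ± 3.36 TPM (SD, n = 3), and the log2 fold change was 1.86 (SE 0.19, 95% interval 1.44 to 2.28, limma, adjusted p = 3.52e-05), or 3.63-fold. At day 14 the mean was 132 ± 35.0 TPM and the log2 fold change against day 0 was 1.40 (SE 0.19, limma, adjusted p = 0.000311). The difference between days 14 and 2 was -0.46 (95% interval -0.88 to -0.04, limma, adjusted p = 0.0870). It passed under median-of-ratios scaling (-0.74, adjusted p = 0.0139), under quantile normalization (-0.75, 0.0182), with the 20 most abundant rows removed (-0.58, 0.0397) and without day 14 replicate 1 (-0.66, 0.0158).

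Hmox1, the inducible heme oxygenase that opens heme to biliverdin, carbon monoxide and iron, had the largest change of the 10 at day 2. It had 36.8, 22.0 and 22.6 TPM in the day 0 libraries, 435, 471 and 278 TPM in those of day 2 and 102, 61.6 and 127 TPM in those of day 14. The 3 days did not overlap, with day 2 highest and day 0 lowest. The day 2 mean was 395 ± 103 TPM and the day 0 mean 27.1 ± 8.36 TPM (SD, n = 3), a 14.1-fold rise (log2 fold change 3.82, SE 0.31, 95% interval 3.12 to 4.51, limma, adjusted p = 1e-05). The day 14 mean of 97.0 ± 33.0 TPM was above that of day 0, with a log2 fold change of 1.78 (limma, SE 0.31, adjusted p = 0.00126), and below that of day 2, with one of -2.04 (limma, SE 0.31, adjusted p = 0.00149).

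The constitutive heme oxygenase Hmox2, which was not a member, stayed between 45.4 and 57.0 TPM in the 9 libraries. Hmox1 over Hmox2 was 0.726, 0.428 and 0.498 at day 0, 8.51, 10.3 and 5.69 at day 2, and 1.80, 1.30 and 2.50 at day 14. Hmox2 was thus the more abundant isoform in each library of day 0, and Hmox1 in each library of the later days. The log2 ratio differed between days, by 3.89 at day 2 and 1.74 at day 14 (exact permutation test, p = 0.00357, the smallest that 1680 arrangements can give, adjusted 0.0107).

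**Figure D2:**
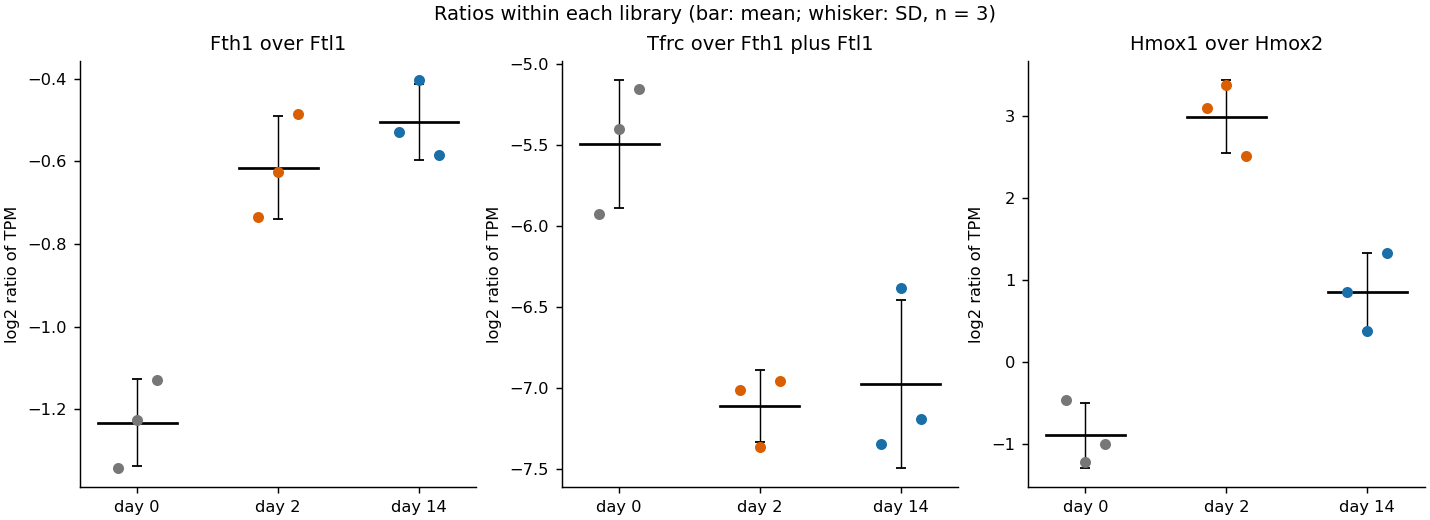
Log2 ratios of TPM within each library by day, with a point per library, the mean as a bar and the SD as a whisker (n = 3). For Fth1 over Ftl1 the later days lie above day 0, for Tfrc over ferritin they lie below it, and for Hmox1 over Hmox2 the 3 days are apart.

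Ireb2 encodes the iron regulatory protein IRP2, which binds IREs and is degraded when iron is plentiful. It had 13.8, 15.7 and 18.4 TPM in the day 0 libraries, 14.2, 22.4 and 16.2 TPM in those of day 2 and 18.6, 21.7 and 22.9 TPM in those of day 14. Day 14 lay just above day 0 without overlap, and day 2 overlapped both. Its differences from day 0 were 0.11 at day 2 (95% interval -0.29 to 0.52, limma, adjusted p = 0.600) and 0.38 at day 14 (-0.02 to 0.78, adjusted p = 0.0940). The day 14 difference passed without day 2 replicate 2 (adjusted p = 0.0418) and with only the groups compared in the fit (0.0473).

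**Figure D3:**
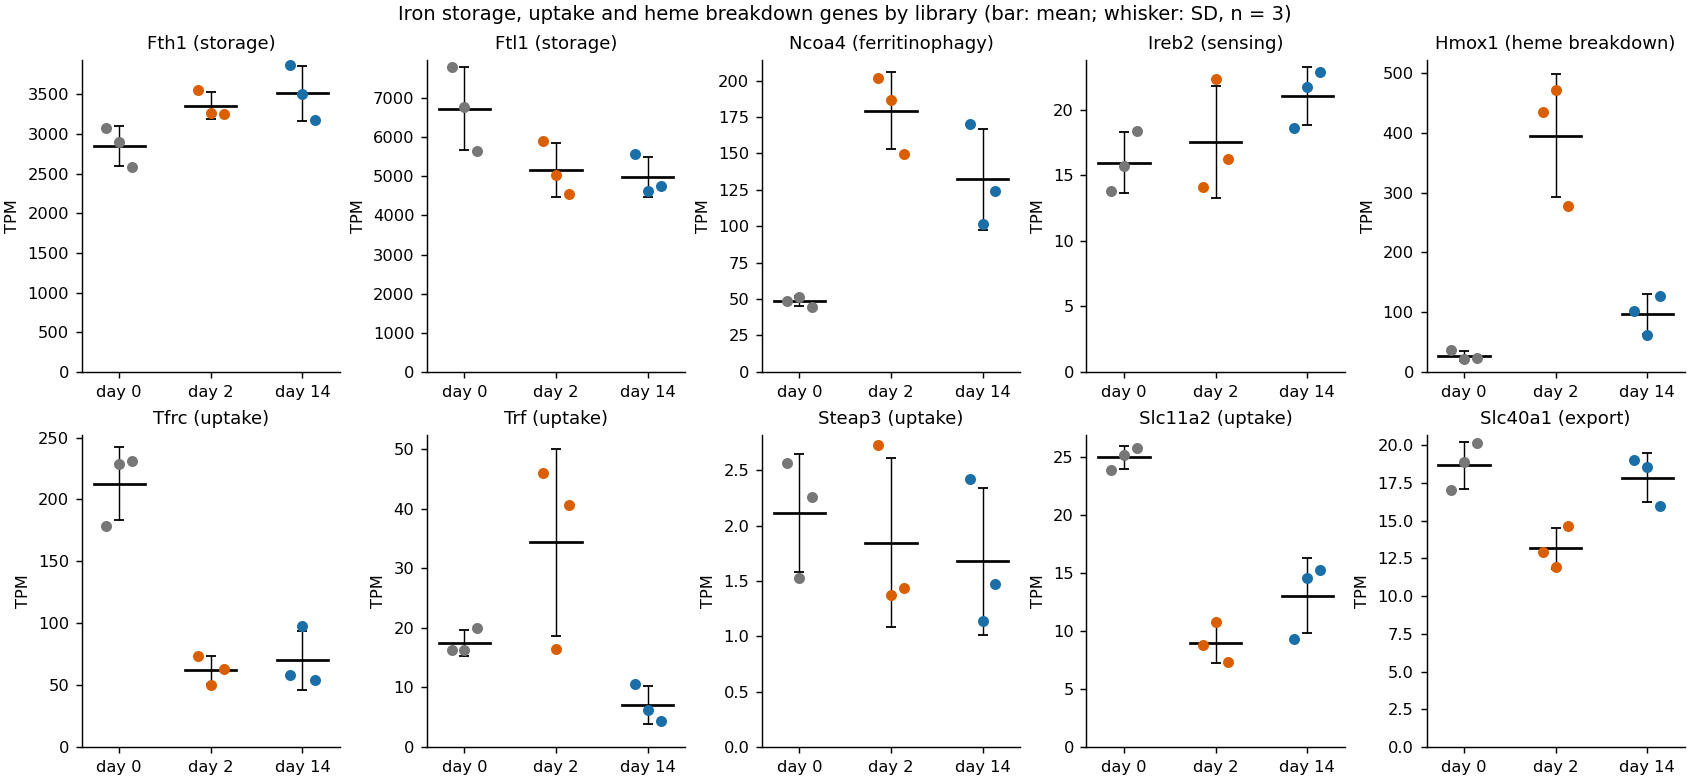
TPM of the 10 members by day on linear axes from 0, with a point per library, the mean as a bar and the SD as a whisker (n = 3). Hmox1 and Ncoa4 are high at days 2 and 14, Tfrc and Slc11a2 are low there, and Slc40a1 is low at day 2 alone.

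Counted together, 2 of the 10 members rose and 4 fell at day 2 against day 0, where 59.0% of all genes tested passed, 27.1% higher and 31.9% lower. By day 14, 3 members were higher and 4 lower than at day 0, where 55.1% of all genes passed, 36.2% higher and 18.8% lower. Between day 14 and day 2, 1 was higher and 2 lower at day 14, where 31.2% of all genes passed, 27.4% higher and 3.79% lower. At day 2 against day 0 the members' counts lie near the shares of all genes. In the comparisons of day 14, calls of lower were more frequent among the members than among all genes, at 4 of 10 beside 18.8% and 2 of 10 beside 3.79%, and nothing particular to the 10 members is read from counts this small. In the same order of comparisons, the median log2 fold change of the 10 was -0.02, -0.15 and 0.01, beside -0.02, 0.22 and 0.25 for all genes. The first 2 comparisons share the day 0 libraries.

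**Figure D4:**
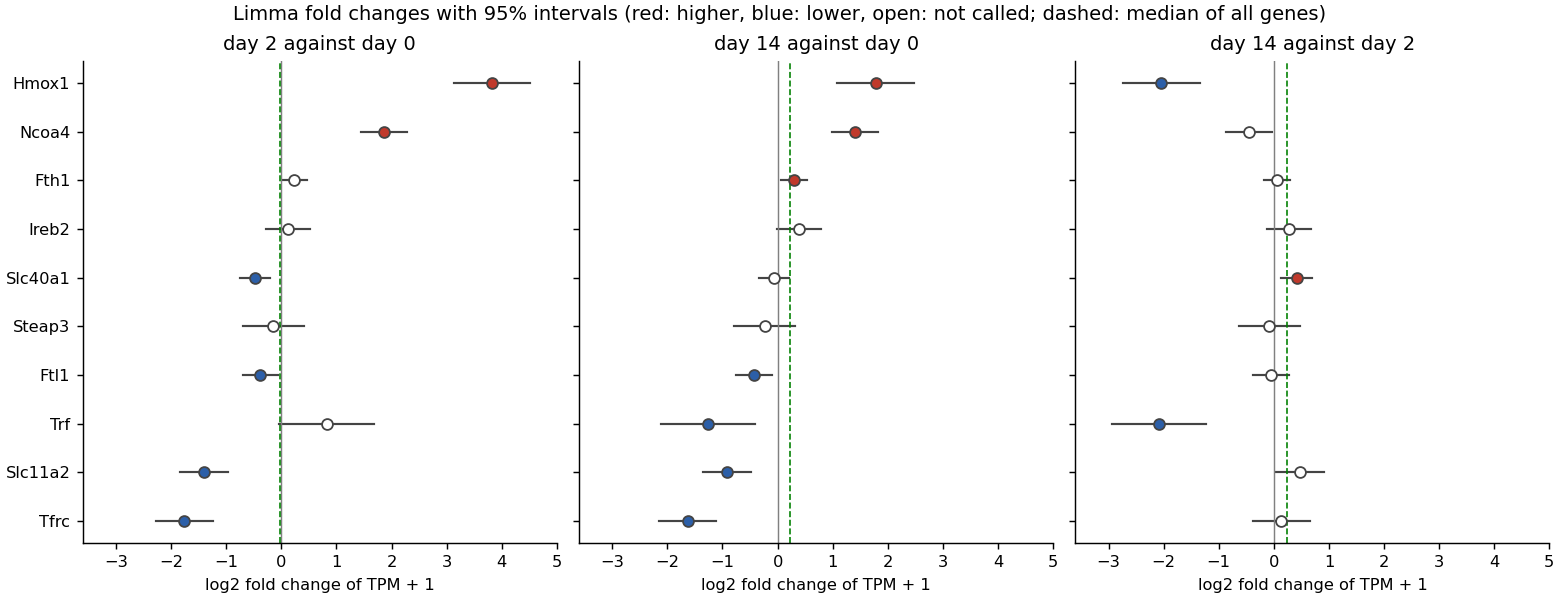
Log2 fold changes of TPM + 1 with their 95% intervals for the 10 members in the 3 comparisons, filled where limma called them (red higher, blue lower), with the median of all genes dashed. Hmox1 and Ncoa4 are higher and Tfrc and Slc11a2 lower at both days against day 0, while the Fth1 call at day 14 goes to 0.00 under median-of-ratios scaling.

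The order of the levels shifted around a fixed top. Ftl1 and then Fth1 led at each day, with no overlap between them. At day 0 Tfrc and then Ncoa4 came next, each apart from its neighbours. Below them, Hmox1 and Slc11a2 overlapped, as did Slc40a1 with Trf and Trf with Ireb2. At day 2 Hmox1 took the third place, above Ncoa4 and then Tfrc, with no overlap among these. At day 14 Ncoa4, Hmox1 and Tfrc followed the ferritins in that order, each overlapping the next. Steap3 was last at each day.

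Genes with the pattern most like each member over the 9 libraries were picked by the root mean square difference of mean-centred log2(TPM + 1), among 7884 genes with at least 10 TPM on average. Sqstm1, the gene of the autophagy receptor p62, was second nearest to Ncoa4 at 0.12, with means of 177, 680.4 and 519 TPM at days 0, 2 and 14, behind Arhgef28 at 0.08 and level with Zfp516 at 0.12. The median distance of all genes searched from Ncoa4 was 0.895. Nearest to Hmox1 were Unc13a at 0.43, Efna1 at 0.45 and Prelid2 at 0.50, against a median of 1.69. Nearest to Tfrc were Nubp1, Smpdl3b and Cenpx at 0.25 to 0.26, and nearest to Slc11a2 were Wdr46, Rbmxl1 and Mmp14 at 0.11. Slc40a1 lay nearest to Plac8 at 0.08, Pcbd1 at 0.09 and the biliverdin reductase gene Blvra at 0.09. Fth1 lay nearest to Zfp710, Ogfr and Ergic3 at 0.05 to 0.07. Ftl1 lay nearest to U2af1l4, Ccdc22 and Egln2 at 0.07 to 0.09, and Trf to Itgb3, Acan and Gtpbp6 at 0.51 to 0.60. Median distances of all genes searched were 0.366 from Slc40a1, 0.369 from Fth1 and 0.409 from Ftl1, which changed little. They were 0.624 from Slc11a2, 0.873 from Tfrc and 1.13 from Trf. These distances are descriptions over libraries that share their days.

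Promoter windows, 250 bases before to 50 after an annotated start, were searched on both strands because HIF and NRF2, factors known to act on iron and heme genes, bind short known motifs. RefSeq (GRCm38.p6) gave 13 windows for 6 of the 10 members. The set of windows used here held none for Hmox1, Trf, Slc40a1 and Slc11a2. The core of the hypoxia response element, ACGTG, was in 4 windows of 2 members, Tfrc and Ncoa4, and in 19.6% of all 32851 windows. The Tfrc windows overlap and hold the same match, at base 249 of one and base 23 of the other. The core of the antioxidant response element, TGACNNNGC, was in 1 window, of Ncoa4, and in 12.4% of all windows. A match is a description of the letters in the window and not a binding site. The matches below are on the plus strand, in capitals, at chr16:32608882-32608911 for Tfrc (228 bases before a start), chr14:32165709-32165738 for Ncoa4 (68 bases) and chr14:32165735-32165764 for Ncoa4 (44 bases).

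Tfrc ACGTG: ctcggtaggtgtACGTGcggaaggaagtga

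Ncoa4 ACGTG: agggggagggagACGTGacgcgcgcaaggc

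Ncoa4 TGACNNNGC: aggcggggcgTGACCTGGCcggtagggtat

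The wider pathway was read from 9 lists of other iron, heme and antioxidant genes, 102 in all, of which 88 were tested. The counts of each list stand beside 27.1% of all genes higher and 31.9% lower at day 2, and 36.2% higher and 18.8% lower at day 14, both against day 0, and nothing particular to a list is read from them. At day 2 against day 0, 18 were higher and 31 lower, near those shares, with a median of -0.10 beside -0.02 for all genes. At day 14 against day 0, 32 were higher and 19 lower, with a median of 0.06 beside 0.22. Under median-of-ratios scaling that split became 20 higher and 36 lower. The shares of all genes moved as well, to 24.4% higher and 31.8% lower. List counts given below under that scaling at day 14 stand beside these shares. At day 14 against day 2, 26 were higher and none lower by limma, which became 10 and 7 under that scaling and 10 and 11 under quantile normalization. The shares of all genes in this comparison were 27.4% higher and 3.79% lower, or 12.4% and 11.7% under median-of-ratios scaling.

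Of 8 regulators of iron sensing and ferritin turnover, 3 were higher and 2 lower at day 2, near the shares of all genes, and 5 were higher and 2 lower at day 14, or 3 and 3 under median-of-ratios scaling. Rb1cc1, a subunit of the kinase complex that starts autophagosomes, rose by 1.33 at day 2 and 0.97 at day 14 (limma, adjusted p = 7.84e-05 and 0.000748). Fbxl5, the ligase subunit that marks IRP2 for degradation when iron is present, had means of 69.4 ± 8.63 TPM in day 14 libraries and 40.0 ± 5.49 TPM in day 0 libraries (SD, n = 3) and rose by 0.78 (limma, adjusted p = 0.00264). Pcbp1, a chaperone that delivers iron to ferritin, fell by log2 fold changes of -0.63 at day 2 and -0.55 at day 14 (limma, adjusted p = 0.00409 and 0.00917), calls that ended under quantile normalization (-0.21 and -0.34).

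Of 16 tested genes of other iron and heme transport, 5 were higher and 4 lower at day 2, near the shares of all genes. At day 14, 10 were higher and 2 lower, or 8 and 4 under median-of-ratios scaling. Under quantile normalization the day 14 counts were 5 higher and 3 lower, beside 22.4% and 26.5% of all genes. Tfr2, a second transferrin receptor known in liver as an iron sensor, had 37.8, 28.9 and 21.6 TPM at day 14 and 5.52, 6.29 and 5.30 TPM at day 0. It rose by 1.87 at day 2 and 2.15 at day 14, in the direction opposite to Tfrc. Cybrd1, a membrane ferric reductase, had 7.29, 3.56 and 1.76 TPM at day 14 and 0.170, 0.155 and 0.111 TPM at day 0, a log2 fold change of 2.04. Abcg2, an exporter of porphyrins and heme among other substrates, fell by log2 fold changes of -1.86 at day 2 and -0.73 at day 14.

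Heme synthesis had 1 higher and 3 lower of 8 at day 2, and 2 higher and 2 lower at day 14, near the shares of all genes, or 0 and 3 under median-of-ratios scaling. Alad, an early enzyme of the route, fell by log2 fold changes of -1.14 at day 2 and -0.76 at day 14, while Uros, a later enzyme, rose by 0.58 at day 14 (limma, adjusted p = 0.0207), or 0.30 under median-of-ratios scaling (adjusted p = 0.162). Among the 4 partners of heme breakdown, Blvra, which reduces biliverdin, was the only call at day 2, at -0.56, and limma called none at day 14, or 2 lower under median-of-ratios scaling.

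Of 23 mitochondrial genes of iron-sulfur cluster assembly and iron handling, 1 was higher (4.35%) and 12 lower (52.2%) at day 2, beside 27.1% and 31.9% of all genes. At day 14, 1 was higher and 6 lower (26.1%), beside 36.2% and 18.8% of all genes, and most were not called. The medians were -0.39 and -0.02, and under median-of-ratios scaling 14 were lower at day 14, with a median of -0.31. The day 2 counts stayed at 1 higher and 12 lower under that scaling. Under quantile normalization they became 3 higher and 7 lower (30.4%), beside 29.1% and 27.3% of all genes, with a median of -0.17. The share lower at day 2 thus lay near that of all genes under quantile normalization. Glrx5, a glutaredoxin that passes on new clusters, had 74.8, 101 and 98.1 TPM at day 14 and 179, 185 and 167 TPM at day 0, with log2 fold changes of -1.52 at day 2 and -0.96 at day 14. Fdxr, the reductase that feeds electrons to assembly, fell by log2 fold changes of -1.04 at day 2 and -0.82 at day 14, and Isca2, a late assembly factor, rose by 0.34 at day 14 (limma, adjusted p = 0.0309), or 0.05 under median-of-ratios scaling. Of the 9 cytosolic assembly genes, 1 was higher and 4 lower at day 2, and 2 higher and 5 lower at day 14. Nubp1 and Nubp2, its scaffold pair, fell by log2 fold changes of -1.50 and -0.73 at day 14, and Mms19, a targeting factor, rose by 0.63.

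All 6 tested NRF2 and BACH1 regulators were higher at day 14 than at day 0, where 36.2% of all genes were higher, and 3 were higher and 1 lower at day 2. Under median-of-ratios scaling 2 of the 6 were higher at day 14, beside 24.4% of all genes, with a median of 0.24 in place of 0.53. Under quantile normalization 5 were, beside 22.4% of all genes. Maff, a small partner protein of both factors, had means of 139 ± 27.0 TPM in day 14 libraries and 41.1 ± 2.21 TPM in day 0 libraries (SD, n = 3) and rose by 1.69 at day 2 and 1.71 at day 14. Bach1, the heme-sensing repressor of Hmox1, rose by 1.16 at day 2 and 0.91 at day 14 (limma, adjusted p = 0.00109 and 0.00489), and its day 14 call ended under quantile normalization (0.40, adjusted p = 0.126). The other NRF2 targets split into 4 higher and 3 lower of 10 at day 2, and 5 higher and 2 lower at day 14. Slc7a11, a cystine transporter, rose by 2.63 and Gstm1, a glutathione transferase, by 2.28 at day 14, while Gsr, which regenerates glutathione, had a log2 fold change of -1.03. Among 4 other transcripts known to carry an IRE, Epas1, which encodes HIF-2alpha, rose by 0.88 at day 14 (0.23 and not called under quantile normalization) but was low, with 2.45 to 2.76 TPM at day 14 and 0.808 to 1.09 TPM at day 0.

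**Figure D5:**
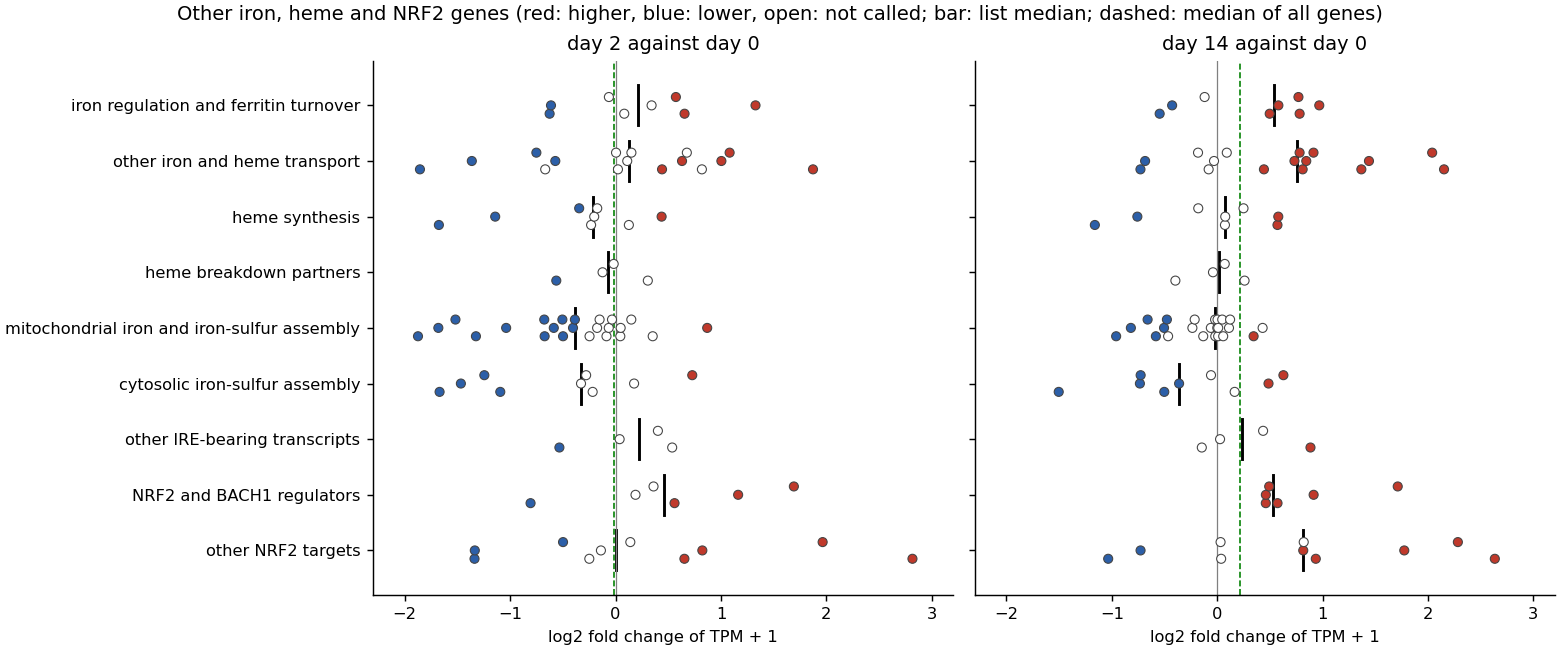
Log2 fold changes of the 88 tested genes of the 9 other lists at day 2 and day 14 against day 0, with a point per gene, filled where limma called it, the list median as a bar and the median of all genes dashed. The 6 NRF2 and BACH1 regulators are higher at day 14 (2 of 6 under median-of-ratios scaling), and the iron-sulfur lists have medians below 0 at day 2. Over all lists, 32 are higher and 19 lower at day 14. Under median-of-ratios scaling these become 20 and 36, where 24.4% of all genes are higher and 31.8% lower.

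Markers of other cells that handle iron were read beside these results. Macrophage markers (7 listed, 4 averaging at least 1 TPM) summed to 81.0 to 93.5 TPM at day 0, 53.2 to 88.9 TPM at day 2 and 89.1 to 151 TPM at day 14, most of it Cd14 and Mrc1. Cd14 stood at 50.2 to 68.0 TPM at day 0, 24.8 to 55.8 TPM at day 2 and 64.8 to 134 TPM at day 14. Mrc1 was lower at day 14 without overlap, at 8.25 to 14.4 TPM, beside 23.0 to 28.5 TPM at day 0 and 24.7 to 30.4 TPM at day 2. Of the others, Adgre1 was at 0.0687 TPM or less, Lyz2 at 0.497 TPM or less and Ptprc at 0.515 TPM or less in all 9 libraries. Csf1r stood at 0.153 to 0.321 TPM at day 0, 0.276 to 0.708 TPM at day 2 and 2.31 to 5.20 TPM at day 14. Cd68, which encodes a lysosomal protein, stood at 2.09 to 2.37 TPM at day 0, 2.87 to 4.73 TPM at day 2 and 4.75 to 7.14 TPM at day 14, and was higher at both later days (limma, adjusted p = 0.0343 and 0.000870). Erythroid markers (6 listed) summed to 7.80 to 9.77 TPM at day 0, 0.438 to 5.94 TPM at day 2 and 1.13 to 4.42 TPM at day 14, and 3 were at 0 in every library. Hba-a1 made up most of each sum, least so in day 2 replicate 2, where it stood at 0.231 TPM beside 0.207 TPM of Alas2. The part of these markers in the member values was not tested.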

How the data were processed

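Transcripts had been quantified with Salmon, per the submitters' processing notes. Which version, index, genome build and annotation it used is not given in the sources used here. Deposited values are TPM per gene, scaled by the authors to 1000000 in each of the 9 libraries and not otherwise scaled between them. Read totals cannot be had from TPM, so the depth is unknown and no counting interval is given. The meaning of the prefix WT in the column names is not given.

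Of 24493 rows, 12693 with at least 1 TPM in at least 3 libraries were tested. Values were log2(TPM + 1), fitted with limma 3.58.1 in R 4.3.3 over all 9 libraries with a mean per day and moderated variances with a trend. P-values are two-sided, carry Benjamini-Hochberg adjustment over every gene tested, and were called under 0.05. The script was checked on simulated data. Ratios within a library were tested by exact permutation. The members and lists were chosen with earlier results of these data known. All 10 members are named. For each list the pair of called genes that changed most between day 14 and day 0 is named, with the called gene that changed most the opposite way, or all called genes where 3 or fewer were called, and for each called member its 3 nearest genes. A gene of heme synthesis that this rule names is not reported here. Hmox2, and genes given as markers or described beside a member, came in through the ratios and the marker lists. Blvra was named at day 2 after its value was seen.

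Alternatives were no filter or one on a mean of 5 TPM, pseudocounts of 0.1 and 5, quantile normalization, median-of-ratios scaling, leaving out the 20 most abundant rows or Mir6236 and Rn45s, no trend, robust variances, only the groups compared, the replicate number as a block, and each library left out. No batch is given in the labels. Python 3.11.15 with matplotlib 3.10.9 drew the figures.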

Additional observations from a re-analysis of the deposited data

Results flagged for a closer look

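In 3 of the 10 members the day 14 change and the day 2 change, both from day 0, were not alike by the limma test of day 14 against day 2, which called 31.2% of all genes. For Hmox1 the day 14 change minus the day 2 change was -2.04 (SE 0.31, limma, adjusted p = 0.00149), with 102, 61.6 and 127 TPM at day 14 and 435, 471 and 278 TPM at day 2. For Trf it was -2.09 (SE 0.38, limma, adjusted p = 0.00376), with each day 14 library below each day 2 library. For Slc40a1 it was 0.41 (SE 0.12, limma, adjusted p = 0.0316), with each day 14 library above each day 2 library, a call that ended in 11 of 21 alternatives. The comparisons with day 0 share its 3 libraries.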

How the results depend on the processing

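Against day 0, the calls of Hmox1, Ncoa4, Tfrc and Slc11a2 held at both times under all 21 alternatives, with log2 fold changes at day 2 of 3.63 to 4.05, 1.77 to 2.19, -1.89 to -1.34 and -1.52 to -1.11. The day 14 calls of Hmox1 and Trf against day 2 held under all 21. The Fth1 call at day 14 ended in 9 of 21, the Ftl1 calls in 10 of 20 at day 2 and 6 of 20 at day 14, and the Slc40a1 call at day 14 against day 2 in 11 of 21. The causes were not tested.

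Members lower at day 2 numbered 2 in place of 4 with the 20 most abundant rows removed, of which Ftl1 is 1. Members lower at day 14 against day 0 numbered 2 to 4 as libraries were left out, and members higher at day 14 against day 2 numbered 0 to 1. That last count was 0 under median-of-ratios scaling, quantile normalization, either removal of abundant rows, only the groups compared and the replicate block. For the other lists, 28 were higher at day 2 with the 20 rows removed, beside 34.9% of all genes. Under median-of-ratios scaling 20 were higher and 36 lower at day 14 against day 0, beside 24.4% and 31.8% of all genes. At day 14 against day 2, the number higher was 10 under median-of-ratios scaling, 10 under quantile normalization, 17 with the 20 rows removed and 14 with only the groups compared, and the number lower was 7, 11 and 4 under the first 3 of these and 1 with no filter and with Mir6236 and Rn45s removed. Of all genes, 12.4% were higher and 11.7% lower in this comparison under median-of-ratios scaling.

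Uncalled differences changed sign. At day 2 against day 0, Fth1 was -0.051 under quantile normalization. At day 14 against day 2, Fth1 was -0.22 under median-of-ratios scaling, -0.061 with the 20 rows removed and -0.017 with Mir6236 and Rn45s removed, Ftl1 0.18 under quantile normalization, Tfrc -0.15 and Ireb2 -0.0018 under median-of-ratios scaling, and Tfrc -0.13 and Ireb2 -0.023 under quantile normalization. With 1 library left out, Ireb2 ran from -0.063 to 0.25 at day 2 against day 0 and Slc40a1 from -0.12 to 0.011 at day 14 against day 0. Between days 14 and 2, Fth1 ran from -0.0078 to 0.14, Ftl1 from -0.13 to 0.054, Tfrc from -0.13 to 0.29 and Steap3 from -0.28 to 0.13.

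The labels do not say that replicate numbers pair the libraries. Same-numbered libraries correlated at -0.0709 to 0.318 once day means were removed, and 4 of 9 correlated best with their own number. With the replicate block, members called were 3 higher and 4 lower at day 2, 3 and 4 at day 14, and 0 and 2 at day 14 against day 2. Within numbers, the exact permutation p of Fth1 over Ftl1 was 0.0556 (0.73 from day 0 to day 14) and that of Tfrc over ferritin 0.111 (-1.48). As libraries were left out, these differences ran from 0.67 to 0.78, from -1.77 to -1.29 and, for Hmox1 over Hmox2, from 1.51 to 1.98. The planned sum of ferritin with its near-copies was not run, since 0 of 4 such rows were in the table. With unknown depth, low genes such as Steap3 have an unknown counting error.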
